A study of Mus musculus with 6 samples.

Results

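The Z-disc is the dense line at which the thin filaments of neighbouring sarcomeres are anchored and cross-linked, and at which the giant elastic protein titin begins its run towards the middle of the sarcomere. Alpha-actinin forms the cross-links, and a set of adaptor proteins with PDZ, LIM, immunoglobulin-like or nebulin-type repeats ties alpha-actinin to titin, to the membrane and to signalling enzymes. In the heart this region bears mechanical load and also holds regulators of growth signalling, among them an inhibitor of the phosphatase calcineurin. The results concern 10 genes of this structure, chosen by symbol from the 35976 genes of the deposited count table: Ttn, Tcap, Actn2, Ldb3, Pdlim5, Myoz2, Myot, Synpo2l, Nebl and Csrp3. All 10 were present and passed the filter on low counts, beside 14879 tested genes in all.

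RNA was measured by sequencing in 6 libraries from the hearts of mice labelled WT. In 3 of them, called edited, the heart had received AAV-MYL2-TadA8e-Sauri-U6-Camk2d sgRNA7, an adeno-associated virus that by its name carries the adenine deaminase TadA8e joined to a Cas9 called Sauri, and a guide against Camk2d behind a U6 promoter. The edit is aimed at a splice donor of Camk2d, and the MYL2 in the name is the promoter of a light chain gene of ventricular muscle. The other 3, called control, had no treatment, so the virus, the editor and the edit differ between the groups together. Age, sex, dose and the part of the heart are not given in the labels, and nothing there says that replicates were separate animals. The p-values therefore measure the spread between these samples.

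Totals ranged from 17062412 to 23097998 counts per library, of which the 10 genes took 0.890% to 0.972%. Camk2d, the targeted gene, was at 226, 220 and 224 CPM in controls and at 138, 130 and 164 CPM in edited hearts. CPM here are counts scaled to a library total of 1000000 after adjustment by trimmed means (TMM). Camk2d fell (log2 -0.63, SE 0.07, adjusted p = 4.76e-04, edgeR), and its log2 change was -0.62 with controls 1 and 3 left out (adjusted p = 0.0964). That setting leaves 1 control, so its spread comes from the 3 edited libraries alone and an adjusted p above the threshold there says little. The 6 markers of heart muscle were Myl2, Myl3, Myh6, Tnni3, Actc1 and Mybpc3, which are not all confined to the ventricle. They summed to 67765 to 70114 CPM in controls and 57715 to 61824 CPM in edited hearts, with Myh6 the most abundant. Of the 6, 3 (Myh6, Myl3 and Tnni3) fell. Atrial markers summed to 61.9, 1992 and 43.8 CPM in controls 1, 2 and 3 and to 1882, 1271 and 2822 CPM in edited hearts 1, 2 and 3. Bmp10, an atrial marker, was at 102 CPM in control 2 and at most 0.112 CPM elsewhere. Mesothelial markers were at 26.9 to 27.3 CPM in controls and 29.4 to 50.5 CPM in edited hearts, and 4 of 6 rose and 1 fell. Fibroblast markers summed to 6143 to 7751 CPM in controls and 7269 to 9269 CPM in edited hearts. The part of these cell types in the results was not tested. Whether the part of the heart that was taken differed between libraries is not given in the labels and was not tested. In RNA from mixed tissue, fewer cells of a type and less RNA per cell cannot be told apart.

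Of the 10 genes, 3 fell in edited hearts, none rose, and 7 did not pass the test. The 3 were Myoz2, the calcineurin-binding protein of the Z-disc, Tcap, the titin cap, and Pdlim5, a PDZ-LIM adaptor. By the fitted change they were at 73.9%, 74.8% and 80.2% of the control level. The cross-linker Actn2 and titin were at 96.0% and 94.7% of it and did not pass. The test was edgeR's quasi-likelihood test over all 14879 genes, with a Benjamini-Hochberg adjusted p under 0.05 as the threshold, and fold changes are log2 of edited over control with their standard error (SE). Across all tested genes the same rule called 9.66%, with 4.74% lower and 4.93% higher (705 and 733 genes; 531 and 849 with upper-quartile scaling). Among genes of at least 100 CPM on average, a level chosen after the data were seen, 18.6% were called and 15.4% were called lower, beside 3 of the 9 members at that level. The median log2 change of the 10 genes was -0.16, against 0.00 for all tested genes. None of the 10 passed the test for a change above 1.5-fold, which 0.289% of all genes did.

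**Figure D1:**
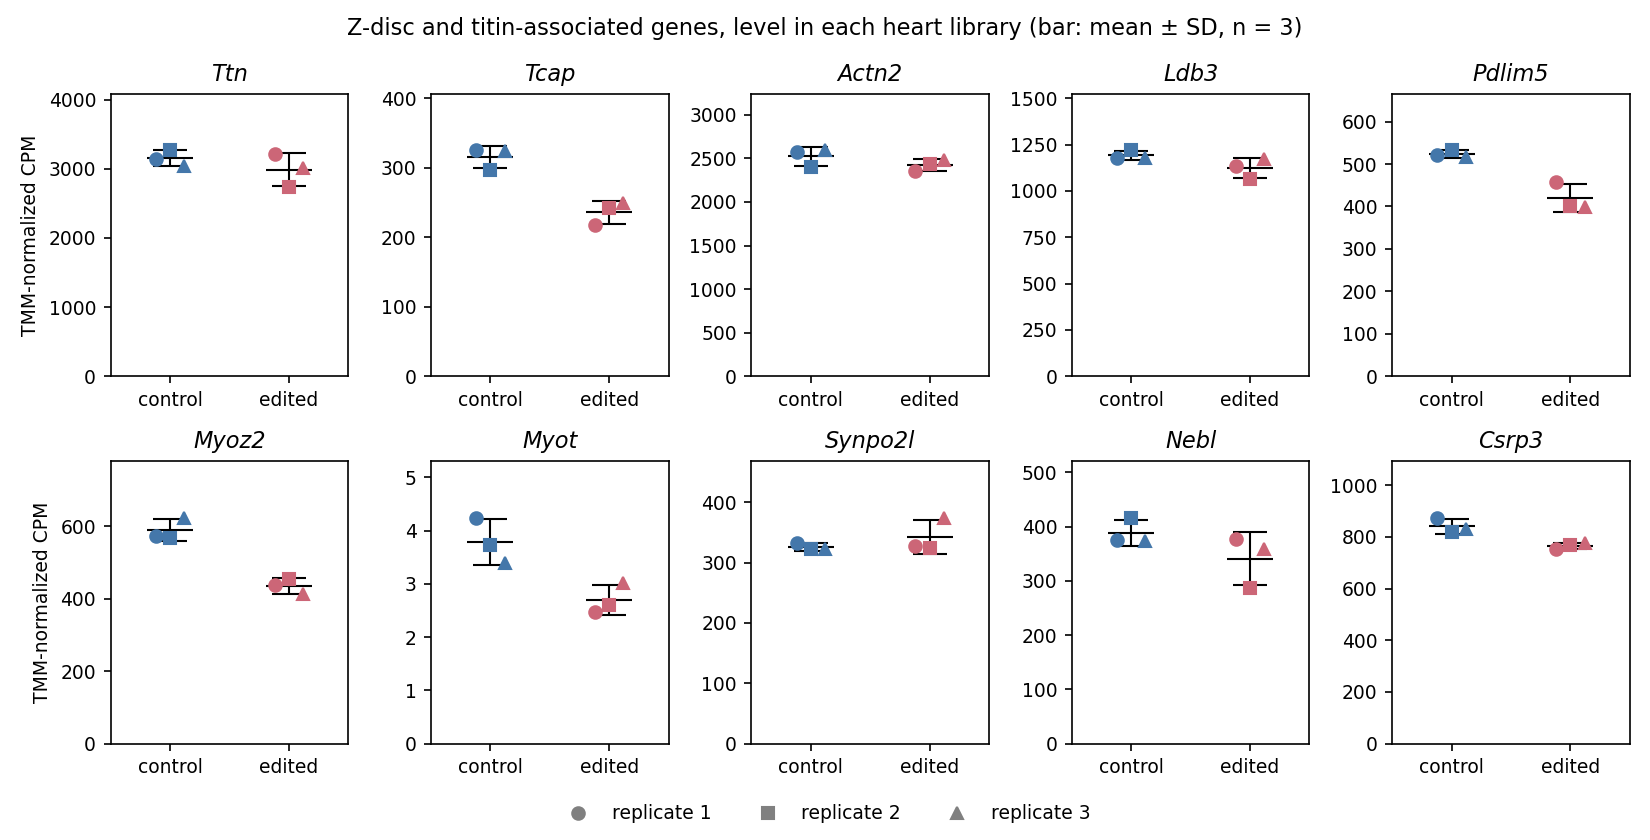
TMM-normalized CPM of each of the 10 genes (vertical axis, starting at 0) in the 3 control and 3 edited heart libraries. Points are libraries, with 1 symbol per replicate number, and bars are the mean ± SD (n = 3). For Tcap, Myoz2, Pdlim5, Csrp3, Myot and, narrowly, Ldb3 the edited points lie below all control points. For Ttn, Actn2, Nebl and Synpo2l the groups overlap.

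Promoter windows of members that fell and of members that did not pass are set side by side here. RefSeq (GRCm38.p6, the assembly that mm10 names) gave a start site for 8 of the 10 genes, and no entry for Tcap and Myot. Shown are the 250 bases before the start, 5' to 3' on the gene's strand, for Myoz2 and Pdlim5, which fell, and for Ttn and Synpo2l, which did not pass the test. Capitals mark matches to the MEF2 site, the A/T-rich element bound by the MEF2 transcription factors of muscle.
Myoz2 (chr3:123034988-123035237, minus strand): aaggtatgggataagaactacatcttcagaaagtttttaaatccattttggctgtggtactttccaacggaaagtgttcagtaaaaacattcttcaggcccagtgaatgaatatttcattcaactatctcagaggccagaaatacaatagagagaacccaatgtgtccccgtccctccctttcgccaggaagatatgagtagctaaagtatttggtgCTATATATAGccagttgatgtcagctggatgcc
Pdlim5 (chr3:142395697-142395946, minus strand): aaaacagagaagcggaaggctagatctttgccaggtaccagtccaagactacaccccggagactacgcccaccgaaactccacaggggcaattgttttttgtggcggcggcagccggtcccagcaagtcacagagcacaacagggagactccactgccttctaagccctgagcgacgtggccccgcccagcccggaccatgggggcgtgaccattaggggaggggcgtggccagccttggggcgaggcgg
Ttn (chr2:76982548-76982797, minus strand): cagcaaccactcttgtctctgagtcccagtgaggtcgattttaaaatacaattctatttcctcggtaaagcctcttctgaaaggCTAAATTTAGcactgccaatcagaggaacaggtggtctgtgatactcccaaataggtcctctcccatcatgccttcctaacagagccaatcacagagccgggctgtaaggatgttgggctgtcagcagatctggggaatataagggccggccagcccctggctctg
Synpo2l (chr14:20668355-20668604, minus strand): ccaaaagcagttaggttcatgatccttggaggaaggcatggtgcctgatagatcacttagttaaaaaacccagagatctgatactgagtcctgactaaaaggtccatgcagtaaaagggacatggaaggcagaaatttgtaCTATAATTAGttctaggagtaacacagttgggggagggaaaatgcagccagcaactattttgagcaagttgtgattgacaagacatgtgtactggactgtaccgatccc
Myoz2 has its match from base -33 to -24, Synpo2l from -109 to -100 and Ttn from -166 to -157, counting back from the start. Pdlim5 has none in this window and a G+C content of 62.8%, against 40.8% for Myoz2. A MEF2 match was found for 3 of the 8 genes and in 2.92% of 32851 RefSeq promoter windows of the same length. A CArG box, the element bound by serum response factor, was found for Ldb3 (1.47% of windows), and an E-box (CANNTG) for 7 of 8 (66.2%). Neither TATAAA (12.4%) nor CATTCC (12.6%) occurred for any of the 8, and GATAAG occurred for Myoz2 (6.55%). Only the exact letters TATAAA were searched, so other forms, such as TATATATA within the Myoz2 match, were not counted. What that stretch binds was not tested. All motifs were searched on both strands, and a match to 1 motif may overlap a match to another. The matches are letters in a window. Of the 3 genes with a MEF2 match, Myoz2 fell and Ttn and Synpo2l did not pass, a difference that was not tested.

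Ttn encodes titin, the spring that spans each sarcomere from Z-disc to M-band, and lies on chromosome 2 from 76703980 to 76982557 on the minus strand in mm10, with 107403 exon bases in the authors' annotation. Its level was 3150, 3273 and 3049 CPM in controls and 3210, 2744 and 3015 CPM in edited hearts. The groups overlapped, with edited 2 the lowest library. The log2 change of -0.08 (SE 0.06) did not pass (adjusted p = 0.440, edgeR), and its interval of ±2 SE ran from 87.5% to 102.5% of the control level. Without edited 2 the log2 change was -0.02, and without edited 1 it was -0.13. The counts cover the whole gene and so do not show titin's spring isoforms, which come from alternative splicing.

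Tcap encodes telethonin, which caps a pair of titin molecules at the Z-disc. Its gene is short, at chromosome 11, 98383811 to 98384953 (plus strand), with 948 exon bases in 2 exons. Its level was 326, 297 and 324 CPM in controls against 218, 242 and 249 CPM in edited hearts. Every edited heart was below every control, and the lowest control was 48.0 CPM above the highest edited heart. The log2 change was -0.42 (SE 0.06), which left 74.8% of the control level, with 68.6% to 81.6% at ±2 SE (adjusted p = 0.00132, edgeR). Within each library, log2 of Tcap over Actn2 counts was -2.985, -3.012 and -3.002 in controls and -3.433, -3.333 and -3.315 in edited hearts, again without overlap.

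Actn2 encodes alpha-actinin-2, the cross-linker that many of the other proteins bind. It lies on chromosome 13 from 12269426 to 12340732, and 2.08% of its exon bases are shared with Gm40667 on the opposite strand. Its level was 2578, 2398 and 2597 CPM in controls and 2351, 2438 and 2482 CPM in edited hearts, with overlapping groups. The log2 change was -0.06 (SE 0.05, adjusted p = 0.510, edgeR), and ±2 SE spanned 89.8% to 102.7% of control. Actn2 served as the reference for ratios within a library, which do not depend on how libraries are scaled.

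The PDZ-LIM adaptors Ldb3 and Pdlim5 both bind alpha-actinin through a PDZ domain, and their LIM domains bind protein kinases. Ldb3 (ZASP or Cypher), on chromosome 14 from 34526699 to 34590323, was at 1179, 1221 and 1176 CPM in controls and 1132, 1065 and 1171 CPM in edited hearts. Its groups did not overlap, but edited 3 and control 3 lay close together, and the log2 change of -0.09 (SE 0.05) did not pass (adjusted p = 0.319, edgeR), with 87.8% to 101.0% of control at ±2 SE. Pdlim5 (ENH), on chromosome 3 from 142239585 to 142395696, was at 522, 533 and 515 CPM in controls and 458, 402 and 399 CPM in edited hearts. All 3 edited hearts were below all controls, edited 1 the least. The log2 change of -0.32 (SE 0.06) left 80.2% of the control level, with 73.9% to 87.1% at ±2 SE (adjusted p = 0.00510, edgeR).

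Myoz2 encodes calsarcin-1 (myozenin-2), which joins alpha-actinin to calcineurin and holds that phosphatase in check. It lies on chromosome 3 from 123006206 to 123035003. Controls were at 574, 568 and 624 CPM and edited hearts at 437, 455 and 413 CPM, so that every edited heart was below every control. The log2 change was -0.44 (SE 0.06), which left 73.9% of control, with 68.3% to 80.0% at ±2 SE, and Myoz2 had the smallest adjusted p of the 10 genes (5.97e-04, edgeR).

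Myot encodes myotilin, an immunoglobulin-domain protein that binds alpha-actinin and filamin and is known mainly from skeletal muscle. Its counts were 71, 71 and 65 in controls and 58, 46 and 54 in edited hearts, or 4.25, 3.74 and 3.39 CPM against 2.47, 2.60 and 3.02 CPM. The groups did not overlap, and the log2 estimate of -0.49 (SE 0.17) did not pass at this depth (adjusted p = 0.0918, edgeR). At ±2 SE its level was 55.9% to 90.3% of control. Markers of skeletal muscle summed to 7.31 to 8.06 CPM in controls and 5.37 to 5.64 CPM in edited hearts over 10 genes. None of the 4 that could be tested passed, and the skeletal myosins Myh1, Myh2 and Myh4 were at 0.369 CPM or less in every library. The part of such cells in the Myot value was not tested.

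Synpo2l encodes CHAP, a synaptopodin-like Z-disc protein, at 20658945 to 20668354 of chromosome 14. It was at 333, 322 and 323 CPM in controls and 327, 325 and 375 CPM in edited hearts. The groups overlapped, with edited 3 apart from the other 5 libraries. Its log2 change of 0.07 (SE 0.06) was the only estimate above 0 among the 10 (adjusted p = 0.531, edgeR), and ±2 SE spanned 96.5% to 114.3% of control. Without edited 3 it was -0.0019.

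Nebl encodes nebulette, the cardiac relative of nebulin that links thin filaments to the Z-disc (chromosome 2, 17343030 to 17731068). It was at 376, 417 and 373 CPM in controls and 378, 286 and 359 CPM in edited hearts. Edited 2 stood well below the other 5 libraries, and edited 1 lay among the controls. The log2 change of -0.19 (SE 0.10) did not pass (adjusted p = 0.295, edgeR), with 76.4% to 100.8% of control at ±2 SE, and without edited 2 it was -0.08. Nebl and Ttn followed each other over the 6 libraries (Pearson's r of log2 CPM = 0.968, the highest of the 45 pairs of these genes, over points that share library and depth). Both were lowest in edited 2, where the markers of fibroblasts (9269 CPM) and of smooth muscle (1441 CPM) had their highest sums of the 6 libraries. The 6 heart muscle markers were not lowest there. They summed to 60087 CPM in edited 2, between edited 3 (57715 CPM) and edited 1 (61824 CPM). Actn2 in edited 2 (2438 CPM) also lay between edited 1 (2351 CPM) and edited 3 (2482 CPM). The part of these cell types in the low values of Nebl and Ttn was not tested.

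Csrp3 encodes muscle LIM protein, which binds alpha-actinin and telethonin (chromosome 7, 48830398 to 48848051). It was at 875, 818 and 831 CPM in controls and 753, 769 and 775 CPM in edited hearts. The groups did not overlap, with 43.5 CPM between the lowest control and the highest edited heart. The log2 change of -0.14 (SE 0.05) did not pass in edgeR (adjusted p = 0.0983), but did in DESeq2 (0.0319) and in limma voom (0.0454), and ±2 SE spanned 85.0% to 97.4% of control. In edgeR the adjusted p ranged from 0.0802 to 0.659 over the other alternatives.

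In all, every edited library was below every control library for 6 of the 10 genes: Tcap, Myoz2, Pdlim5, Ldb3, Csrp3 and Myot. This held for 14.7% of all tested genes, and the reverse order held for 14.6% of them and for none of the 10. Of the lists described below, it held for 34.8% of the tested other Z-disc genes. The share was 11.1% for other titin-associated genes and 11.8% for relatives of the 10 genes. For the 6 heart muscle markers it was 83.3%. With Myl7, an atrial transcript, as a covariate, an alternative chosen after the data were seen, Myoz2 remained past the threshold (adjusted p = 0.0479) and Tcap (0.0829) and Pdlim5 (0.0822) did not. Their log2 changes were then -0.35, -0.35 and -0.34. Myl7 itself was at 6.88, 332 and 0.209 CPM in controls and 542, 371 and 914 CPM in edited hearts, without overlap. The covariate thus follows the groups in part, and this setting cannot separate Myl7 from the group. With controls 1 and 3 left out, the log2 changes of Myoz2, Tcap and Pdlim5 were -0.39, -0.34 and -0.35 and none passed (adjusted p = 0.0861, 0.178 and 0.173), with 1 control left and the spread taken from the edited hearts alone.

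**Figure D2:**
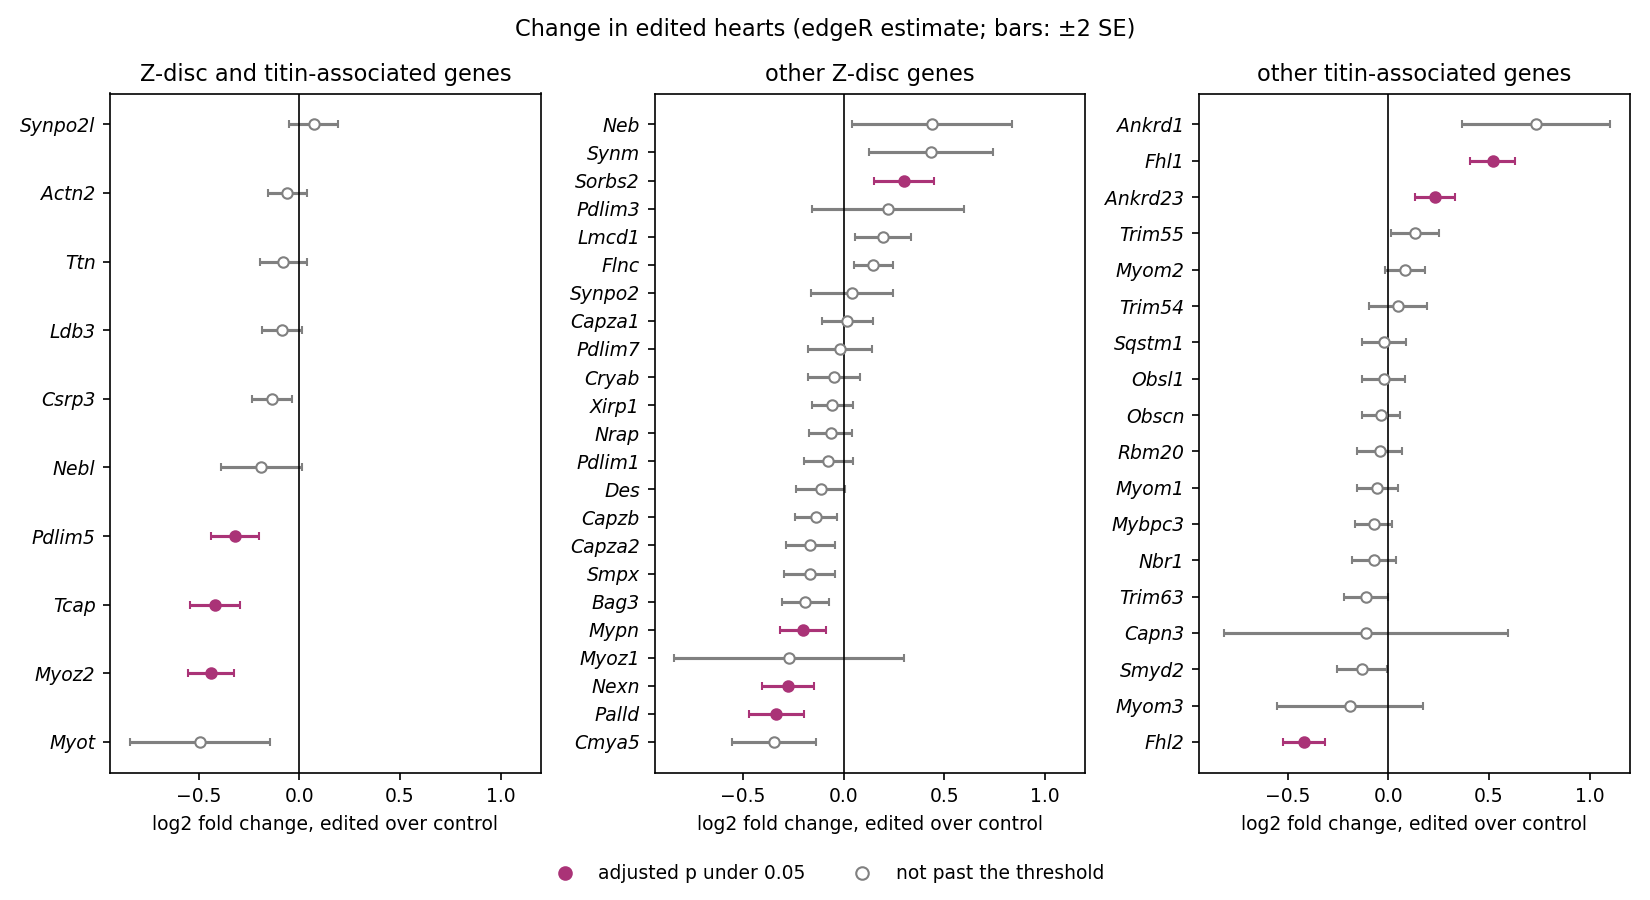
Log2 fold change, edited over control (horizontal axis), of the 10 genes and of the tested members of both related lists. Points are edgeR estimates with bars of ±2 SE, filled where the adjusted p was under 0.05. Filled points fall on both sides of 0 in the related lists, while the 3 filled points of the 10 genes all lie between -0.44 and -0.32.

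The order of the genes by level was read per kilobase of exon, in normalized CPM per kb. Csrp3 (865 ± 30.8 in controls, 787 ± 11.9 in edited hearts; SD, n = 3) and Actn2 (846 ± 36.7 and 812 ± 22.3) were the highest, and their ranges overlapped in both groups. Myoz2 (423 ± 22.1 and 313 ± 15.4), Tcap (333 ± 16.8 and 249 ± 17.5) and Ldb3 (194 ± 4.0 and 183 ± 8.7) followed. Pdlim5 was at 72.9 ± 1.2 and 58.5 ± 4.7 and Synpo2l at 59.3 ± 1.1 and 62.3 ± 5.1. These neighbours were apart in controls and overlapped in edited hearts. The same held for Nebl (36.0 ± 2.3 and 31.6 ± 4.5) and Ttn (29.4 ± 1.0 and 27.8 ± 2.2). Myot was lowest by far at 1.69 ± 0.19 and 1.20 ± 0.13.

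Shares of the summed counts per kb of the 10 genes do not depend on library scaling, although a lower share of some genes raises that of others. Myoz2 took 14.8 ± 0.64% in controls and 12.4 ± 0.72% in edited hearts, and Tcap 11.6 ± 0.27% and 9.87 ± 0.53%. Actn2 took 29.6 ± 0.50% and 32.1 ± 0.33%, Csrp3 30.2 ± 0.75% and 31.2 ± 0.09%, and Synpo2l 2.07 ± 0.05% and 2.46 ± 0.17% (SD, n = 3). The groups did not overlap for these 5 genes, and overlapped for the other 5. These shares are a description and were not tested.

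Relative to Actn2 in the same library, Myot, Myoz2, Tcap and Pdlim5 were lower in every edited heart than in every control. The mean log2 ratios differed by -0.43 for Myot, -0.38 for Myoz2, -0.36 for Tcap and -0.26 for Pdlim5. Each had p = 0.1 in a two-sided exact permutation test, the smallest that 3 against 3 allows, and 0.225 adjusted over the 9 ratios. For the other 5 the groups overlapped: Nebl -0.14 (p = 0.5), Csrp3 -0.08 (p = 0.2), Ldb3 -0.03 (p = 0.7), Ttn -0.02 (p = 0.8) and Synpo2l 0.13 (p = 0.2; all by the exact permutation test). The Ttn to Actn2 and Ldb3 to Actn2 differences changed sign without control 2 (0.04 and 0.02) or edited 2 (0.04 and 0.01). Another denominator, the summed heart muscle markers, was chosen after the data were seen. Against it, Tcap (-0.22) and Myoz2 (-0.24) were lower in every edited heart than in every control. Actn2 (0.14) and Synpo2l (0.27) were higher in every edited heart than in every control. Each had p = 0.1 by the exact permutation test (0.25 adjusted over 10 ratios). Pdlim5 (-0.12) and Myot (-0.29), which were apart relative to Actn2, overlapped between groups on this denominator (exact permutation p = 0.2 for both), as did Ttn (0.12), Ldb3 (0.11), Csrp3 (0.06) and Nebl (0.00).

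**Figure D3:**
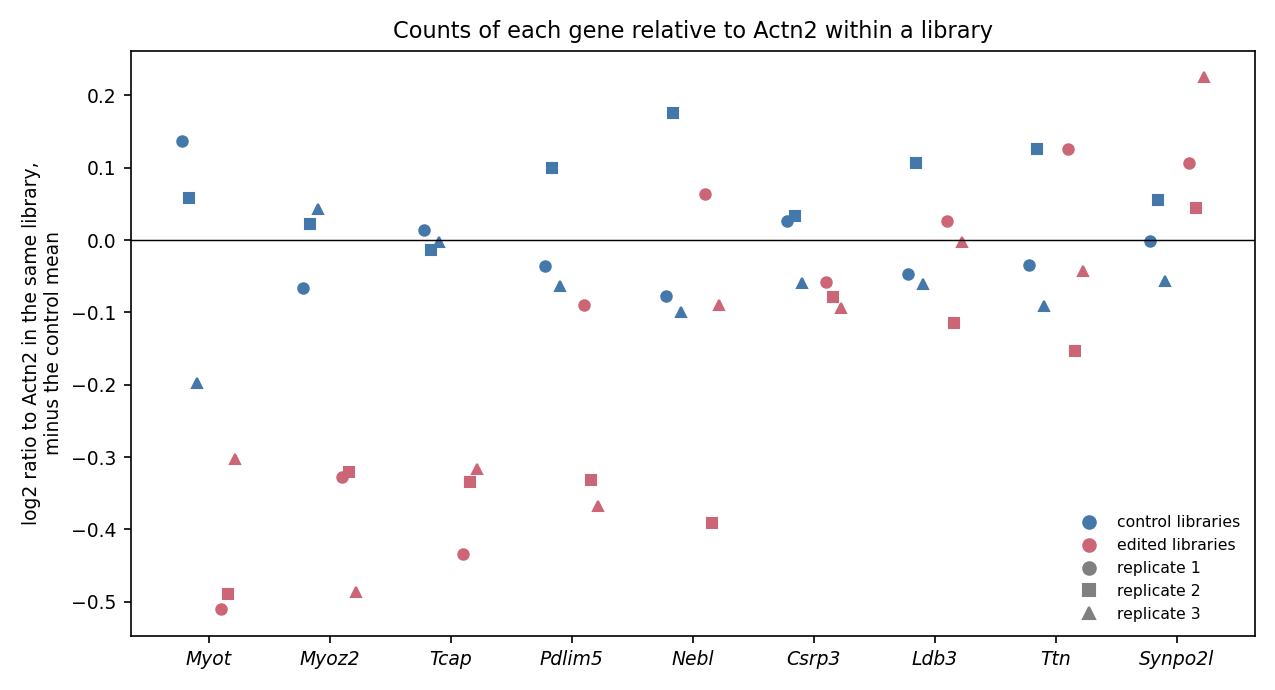
Log2 ratio of each gene's counts to those of Actn2 in the same library, minus the control mean of that ratio (vertical axis). Each point is a library, with blue for control and red for edited, and symbols give the replicate number. The edited points of Myot, Myoz2, Tcap and Pdlim5 lie below all control points.

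Other genes of the Z-disc went both ways. Of 24 such genes, 23 were tested, and 3 fell and 1 rose. The calls were 17.4% of those tested, beside 9.66% of all genes and 18.6% of genes of at least 100 CPM on average. The list also holds genes below that level. The falls were Palld, the actin-binding palladin (474 ± 18.8 to 376 ± 36.6 CPM), Nexn, the F-actin binding nexilin (491 ± 9.6 to 405 ± 39.3), and Mypn, myopalladin (182 ± 12.3 to 159 ± 1.5). Sorbs2, an adaptor with SH3 domains, rose from 481 ± 19.97 to 592 ± 66.1 CPM (means of controls and of edited hearts ± SD, n = 3). In edgeR the adjusted p of the 4 were 0.00812, 0.0171, 0.0392 and 0.0255. The intermediate filament gene Des (1121 ± 44.8 and 1035 ± 89.8) and the chaperone gene Cryab (516 ± 33.9 and 499 ± 34.9) did not pass. The list's median log2 change was -0.07. None of the 4 calls remained without control 3, where the adjusted p was 0.0655 for Palld, 0.0925 for Nexn, 0.229 for Mypn and 0.147 for Sorbs2. Their log2 changes were then -0.32, -0.28, -0.15 and 0.27, against -0.33, -0.28, -0.20 and 0.30 with all libraries. In the list, 2 genes were called when control 1, control 2, edited 1 or edited 3 was left out, and 0 in either setting chosen after the data were seen. With upper-quartile scaling 2 were called lower and 2 higher, and Mypn was not among them (adjusted p = 0.0682).

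Other titin-associated genes also differed in direction. Of 19, 18 were tested, 2 rose and 1 fell. The calls were 16.7% of those tested, beside 9.66% of all genes and 18.6% of genes of at least 100 CPM on average. Some genes of this list, too, lay below that level. Fhl1 and Fhl2 encode LIM proteins that bind titin's N2B spring segment. Fhl1 was at 137, 138 and 139 CPM in controls and 196, 211 and 185 CPM in edited hearts, and rose by a log2 change of 0.52 (SE 0.06, adjusted p = 1.92e-04, edgeR). Fhl2 was at 1793, 1661 and 1853 CPM in controls and 1375, 1297 and 1303 CPM in edited hearts, and fell (log2 -0.42, SE 0.05, adjusted p = 4.76e-04, edgeR). The 2 relatives thus moved in opposite directions, with no overlap between groups for either.

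Ankrd23, an ankyrin-repeat protein that binds the N2A segment, rose from 171 ± 1.6 to 201 ± 6.5 CPM (SD, n = 3; adjusted p = 0.0110, and 0.0826 without control 3, edgeR). Its relative Ankrd1, which falls outside the rule for named genes and was picked after its values were seen, was at 545, 588 and 431 CPM in controls and 790, 1047 and 765 CPM in edited hearts. Ankrd1 did not pass (log2 0.73, SE 0.18, adjusted p = 0.0838, edgeR). Mybpc3, the cardiac myosin-binding protein C (4401 ± 183 and 4188 ± 73.9 CPM), and Myom1, myomesin of the M-band (1302 ± 51.8 and 1254 ± 53.4), did not pass. The list's median log2 change was -0.04. With the Myl7 covariate Fhl1 stayed past the threshold and Fhl2 did not (adjusted p = 0.0556). With controls 1 and 3 left out neither passed (0.0577 and 0.110), nor did Ankrd23 in either setting (0.177 and 0.302). The log2 changes were then 0.54 and 0.51 for Fhl1, -0.32 and -0.33 for Fhl2 and 0.24 and 0.24 for Ankrd23, whose change without control 3 was 0.23.

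Relatives of the 10 genes, some of them also in the list of other Z-disc genes, gave 2 rises and 2 falls among 17 tested of 19. The calls were 23.5% of those tested, beside 9.66% of all genes and 18.6% of genes of at least 100 CPM on average. Most genes of this list, Synpo and Csrp1 among them, lay below 100 CPM on average. The 18.6% is therefore not matched to their level. Synpo, the synaptopodin related to Synpo2l, rose from 73.0 ± 4.0 to 101 ± 4.3 CPM (log2 0.47, SE 0.06, adjusted p = 4.78e-04, edgeR). Synpo did not pass with the Myl7 covariate (log2 0.39, adjusted p = 0.0623) or with controls 1 and 3 left out (log2 0.38, adjusted p = 0.125). Csrp1, a LIM protein of smooth muscle and other cells related to Csrp3, rose from 89.2 ± 3.0 to 111 ± 13.1 CPM, with an adjusted p of 0.0229 (SD, n = 3, edgeR). Leaving out control 1, control 2, control 3 or edited 3 gave an adjusted p of 0.107, 0.0792, 0.0865 or 0.0632, and the Myl7 covariate or leaving out both controls 1 and 3 gave 0.165 or 0.388. The log2 change of Csrp1 was 0.31 with all libraries, 0.30, 0.29, 0.34 or 0.32 in those 4 settings, and 0.37 or 0.33 in the last pair. Without edited 1 or without edited 2 the call of Csrp1 remained (log2 0.38 and 0.21, adjusted p = 0.00203 and 0.0255, edgeR). Csrp1 was highest in edited 2 (125 CPM), the library with the largest smooth muscle marker sum. In edited 3, the library with the smallest such sum (741 CPM), Csrp1 was at 108 CPM, above every control. The part of smooth muscle cells in the rise of Csrp1 was not tested. The 2 falls were Palld and Mypn, which are related to Myot and were already counted among the other Z-disc genes. Actn4, a non-muscle alpha-actinin (296 ± 6.5 and 321 ± 33.5 CPM), and Nrap, a nebulin relative (502 ± 17.3 and 480 ± 18.4), did not pass.

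**Figure D4:**
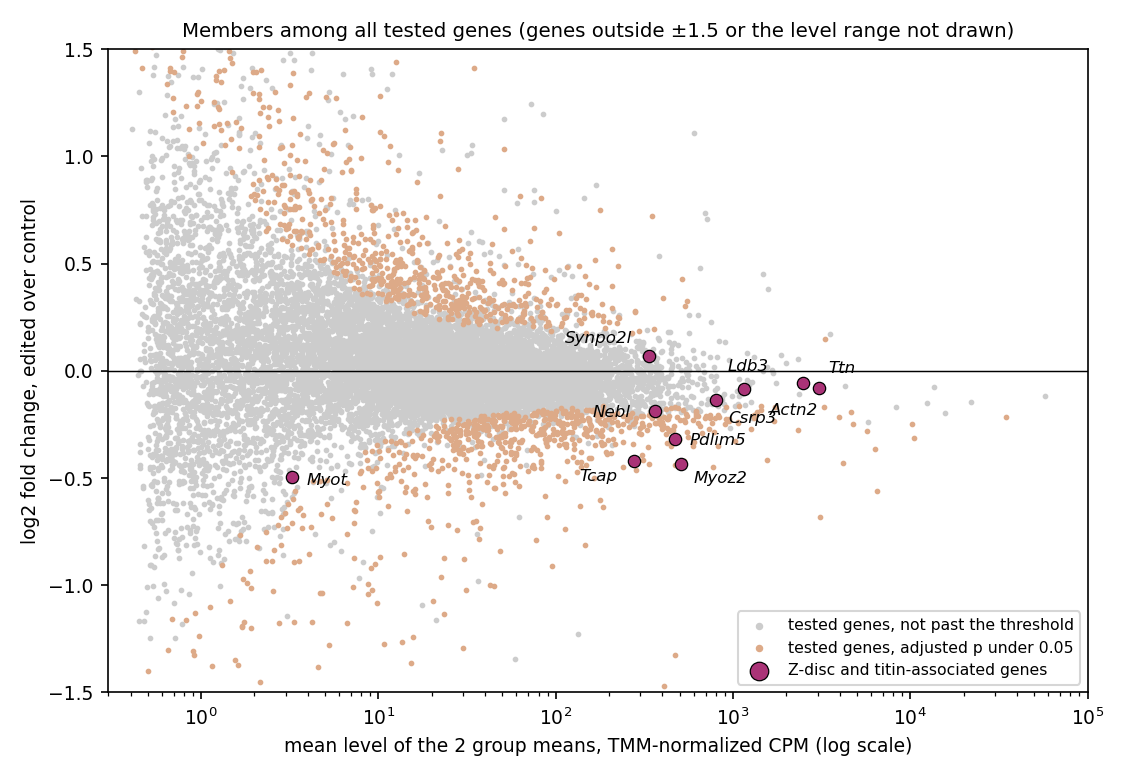
Log2 fold change against mean level (log axis, TMM-normalized CPM) for all tested genes, with the 10 genes as large points. Myoz2, Tcap and Pdlim5 lie among called genes, at 276 to 512 CPM, and Myot lies among uncalled genes at a mean level under 10 CPM. Genes beyond a log2 change of ±1.5 are not drawn.

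Other genes followed the same pattern over the libraries. Among 9299 genes of at least 10 CPM on average, the 5 whose log2 CPM had the highest Pearson correlation with Tcap over the 6 libraries were Asb10, Fbxw5, Wdr92, Dhrs4 and Eif3m (r = 0.992 to 0.994). Asb10, an ankyrin-repeat and SOCS-box protein, was at 55.1, 51.1 and 53.2 CPM in controls and 37.1, 41.1 and 41.2 CPM in edited hearts. For Ttn the 5 were Traf6, Rnf13, Ncoa2, Bclaf1 and Necap1 (r = 0.987 to 0.989). Bclaf1 was at 122, 128 and 120 CPM in controls and 128, 102 and 116 CPM in edited hearts, lowest in edited 2 like Ttn. These are descriptions over 6 points that share library and depth, picked from many genes.

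**Figure D5:**
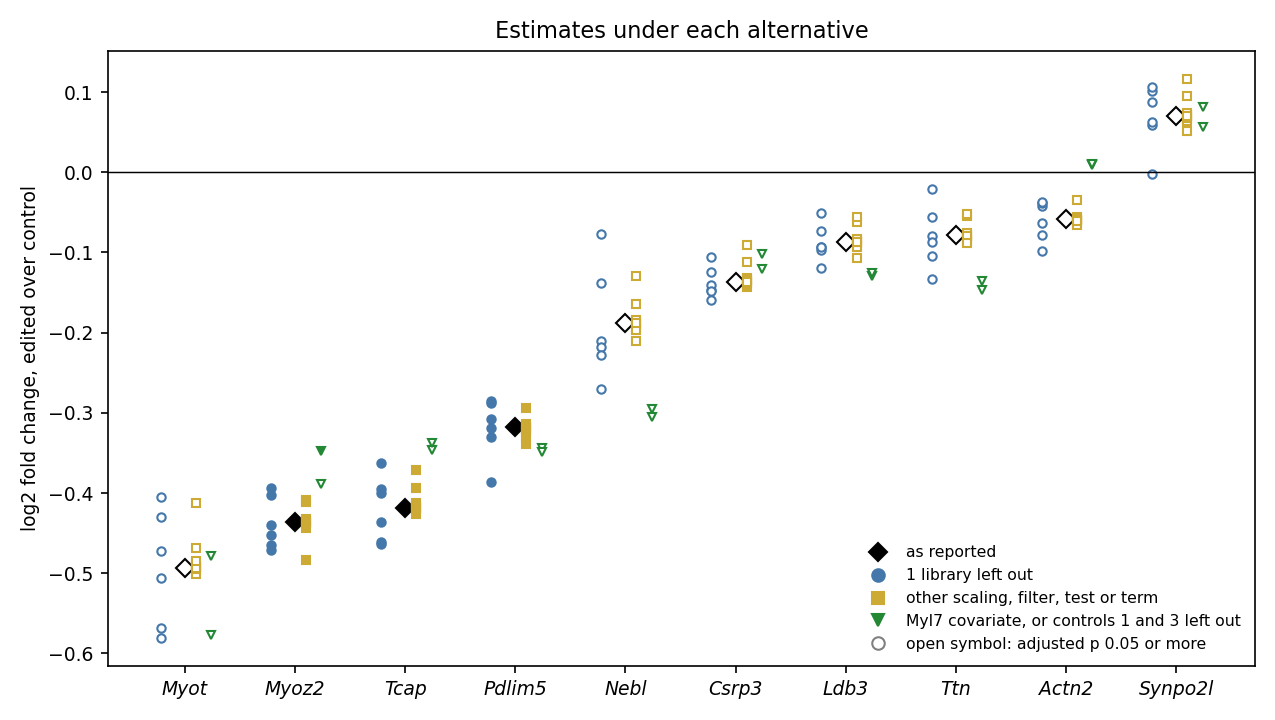
Log2 fold change of each of the 10 genes (vertical axis) as reported (black diamonds) and under each alternative (circles, 1 library left out; squares, other scaling, filter, test or term; triangles, the 2 settings chosen after the data were seen), filled where the adjusted p was under 0.05. Circles and squares of Myoz2, Tcap and Pdlim5 are all filled, and of their triangles 1 of Myoz2 is filled.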

How the data were processed

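The authors deposited 1 table of raw read counts per gene. Reads were handled with cutadapt, FastQC, STAR and featureCounts on mm10, per the submitters' processing notes. Their versions, the strand setting and the treatment of multi-mapped reads were not given in the sources used here. Each library had 2 count columns, and 0 genes differed between them, so the raw_1 column was used. Replicates differed by more than sampling noise (chi-square per degree of freedom 3.9 to 15.5 over genes of at least 20 counts in both).

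The filterByExpr function of edgeR kept 14879 genes, whose counts were scaled by TMM (factors 0.971 to 1.039) and compared between groups with the quasi-likelihood test (edgeR 4.0.16, R 4.3.3, robust, group as the only term), with glmTreat for changes above 1.5-fold. The SE is the log2 change divided by the square root of F. The steps were tested on simulated counts. The members and lists were chosen with earlier results of these data known. Named genes are the 10 members, Camk2d, up to 8 called and the 2 most abundant uncalled genes of each list, and the 5 genes most like Ttn and Tcap. Alternatives were DESeq2 1.42.0 (size factors or Wald test), upper-quartile scaling, no filter, 1 CPM in 3 libraries, limma voom (3.58.1), a replicate block, each library left out, mitochondrial and haemoglobin genes left out, and a length trend as an offset. A Myl7 covariate, leaving out controls 1 and 3, and ratios to summed heart muscle markers were added after the data were seen. With 3 against 3, exact tests (SciPy 1.17.1) cannot go below p = 0.1. Promoters are RefSeq's, matched by symbol.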

Additional observations from a re-analysis of the deposited data

How the results depend on the processing

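The calls of Myoz2, Tcap and Pdlim5 held in all 15 settings fixed at the outset, with log2 changes of -0.48 to -0.39, -0.46 to -0.36 and -0.39 to -0.28. The number of called members was 3 or 4 in these settings, 1 with Myl7 as a covariate and 0 with controls 1 and 3 left out, where 1 control remains and the spread comes from the edited libraries alone. In these last settings Actn2 had log2 changes of 0.0086 and 0.01001, and Cryab 0.0287 and 0.0476, in place of negative ones. Leaving out 1 library gave Synpo2l -0.0019 (without edited 3) to 0.106. The cause was not tested. Upper-quartile scaling put the median log2 change of all genes at 0.03 and gave 849 higher and 531 lower calls, against 733 and 705.

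Over all genes, 1438 calls became 2239 without a filter, 2398 with voom, 126 with Myl7 as a covariate, 82 with controls 1 and 3 left out, 781 without control 1, 743 without edited 3, and 386 (without control 3) to 1661 (without edited 2) when 1 library was left out. For other Z-disc genes 4 became 7 with DESeq2's Wald test, 10 with voom, 7 with the length trend, 0 with the Myl7 covariate, 0 with controls 1 and 3 left out, and 0 to 6 when 1 library was left out. For other titin-associated genes 3 became 1 with the covariate and 0 without controls 1 and 3. Leaving out 1 library, the difference of the log2 ratio to Actn2 ranged from -0.0976 to 0.0419 for Ttn and from -0.0598 to 0.0244 for Ldb3, with values above 0 for both without control 2 (0.0398 and 0.0244) and without edited 2 (0.0419 and 0.0127).

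Same-numbered libraries did not deviate together (r = 0.02, -0.0957 and -0.0756), so the numbers were not taken as pairs. With the replicate block 1077 genes and 3 members were called, Mypn lost its call (adjusted p = 0.0803), and no member's call changed. Only control 1 correlated best with the library of its own number in the other group. The depth limits Myot, which had 46 to 71 counts per library.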

Other observations

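Myoz2 and Pdlim5, 2 of the 3 members that fell, are on chromosome 3, as is the targeted gene Camk2d. By coordinate, Myoz2 lies 3.56 megabases before Camk2d, and Pdlim5 lies 15.4 megabases after Camk2d. On chromosome 3, 85 of 702 tested genes were called (12.1%, against 9.66% of all genes), and 43 of them were lower. Of the 8 tested genes that lie between Myoz2 and Camk2d, 2 were called and 0 of those were lower. These positions were looked up after the values were seen.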
